A study of Mus musculus with 8 samples.

Results

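Zbtb16, Zbtb7b, Zbtb7a, Zbtb32 and Bcl6 encode 5 transcription factors of the BTB zinc finger family, better known in T cells as PLZF, ThPOK, LRF, ROG (repressor of GATA) and BCL6. They were taken by symbol as rows of the gene count table. All 5 were found among its 24505 genes, and all 5 passed the filter on low counts that left 12699 genes to test. Their levels were read in a mouse pro-T cell line given extra Runx1, a Runx1 DN construct or Satb1. Of the 5, Zbtb16 rose most, 13.1-fold with Runx1 WT and 8.05-fold with Satb1. Bcl6 rose 4.03-fold with Runx1 WT, and Zbtb7b and Zbtb7a rose less than 2-fold.

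BTB zinc finger proteins bind DNA through C-terminal zinc fingers and use an N-terminal BTB domain to pair with one another and to recruit corepressor complexes with histone deacetylases. PLZF gives natural killer T cells their rapid effector programme and is also expressed in innate lymphoid precursors. ThPOK commits thymocytes to the CD4 helper lineage and is held off in the CD8 lineage by Runx proteins acting on a silencer at its gene. LRF restrains Notch-driven T cell fate in haematopoietic progenitors and works together with ThPOK in CD4 cells, ROG represses GATA3-driven cytokine genes and limits T cell activation, and BCL6 directs follicular helper T cells and germinal centre B cells in mutual opposition with Prdm1.

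The cells were Scid.adh.2c2, a subcloned line derived from a thymic lymphoma of a scid mouse, so all groups share 1 clone and its background. They were transduced with a retrovirus carrying GFP and nothing else named (Mock-GFP), Runx1 WT-GFP, Runx1 DN-GFP or Satb1-GFP, and infected cells were sorted 2 days later for RNA from 300000 cells. DN is not spelled out in the labels. In work on Runx proteins it usually stands for dominant negative, and which stretch of Runx1 the construct holds is not given. Each of the 4 groups has 2 libraries, and nothing says that they came from separate infections, so the p-values here reflect the scatter of these libraries alone, and that scatter may be technical.

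The 8 libraries held 23624498 to 33093330 counts, and 3 counts, the limit that a count of 0 allows, corresponded to 0.0953 to 0.125 CPM (counts scaled to a common library size, with edgeR's TMM correction for library composition). Such limits cover counting error only. Runx1 stood at 129.4 to 137.7 CPM in mock, 7647 to 8307 with Runx1 WT and 21201 to 24239 with Runx1 DN. Satb1 stood at 377 to 385 CPM in mock and 3583 to 3983 with Satb1. The 8 T lineage markers summed to 2395 to 2474 CPM in mock, 3793 to 3932 with Runx1 WT, 994 to 1029 with Runx1 DN and 2687 to 2831 with Satb1. With Runx1 WT Il2ra alone of them fell, from 550 and 547 CPM in mock to 263 and 275. With Runx1 DN Cd3g alone stayed within its mock range, at 152 and 153 CPM against 148 and 160. The 5 B lineage markers stayed at or under 1.07 CPM in sum and the 4 erythroid markers at or under 1.21, with Hbb-b1 at 0 in every library. Myeloid markers summed to 9.56 to 11.5 CPM in mock, 71.5 to 76.1 with Runx1 WT, 19.5 to 22.2 with Runx1 DN and 14.5 to 21.2 with Satb1. Itgam alone made most of that sum, at 7.18 and 9.48 CPM in mock and 65.1 and 70.4 with Runx1 WT. Lyz2 stayed at or under 0.143 CPM, and Csf1r and Cd14 were at 0 in mock. Csf1r was at 2.89 and 2.14 CPM with Runx1 WT and 0.457 and 0.828 with Runx1 DN. Adgre1 was at 0.0756 and 0.223 CPM in mock and 2.12 and 2.09 with Runx1 DN. Cd68 was at 2.31 and 1.79 CPM in mock and 3.103 and 3.286 with Runx1 WT. Stromal markers summed to 24.4 to 26.9 CPM in mock and 87.6 to 113.3 in the other groups, nearly all of it Pdgfrb, at 24.1 and 26.3 CPM in mock and 85.5 to 112.8 elsewhere. Col1a1 and Col1a2 stayed at or under 1.58 CPM, and Col3a1 or Dcn was at 0 in every group. Of 7 RNA quality transcripts tested, 3 were higher and 1 was lower with Runx1 WT, where 38.9% of all genes were higher and 31.8% lower. With Runx1 DN 4 were higher, against 17.5% of all genes, and with Satb1 1 was lower, against 3.09%. The 15 hypoxia genes were taken from genes that differ between the mock replicates, so their difference within mock was set by that choice. All 15 were higher in replicate 2 than in replicate 1 of mock, by a median of 1.10 (log2). In Satb1 15 were also higher in replicate 2, by a median of 1.46. Of the 15, 14 were called lower than in mock with Runx1 WT, 10 with Runx1 DN and 0 with Satb1. Over all genes the lower shares were 31.8%, 16.9% and 3.09%. The choice used the mock libraries, so these counts against mock are not independent of it. The part of these differences in the results on the BTB genes was not tested, and in bulk RNA fewer cells of a type and less RNA per cell cannot be told apart.

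Against mock, Runx1 WT was called higher for 4 of the 5 genes (Zbtb16, Zbtb7b, Zbtb7a and Bcl6) and lower for none, by the quasi-likelihood test of edgeR with a threshold of 0.05 on the adjusted p. For the lower direction, DESeq2 also called 0 of the 5, as did an unadjusted p under 0.05. Of all genes tested, 70.7% were called in that comparison, 38.9% higher and 31.8% lower. Runx1 DN was called higher for 1 gene (Zbtb7b) and lower for 1 (Zbtb16), where 34.5% of all genes were called, 17.5% higher and 16.9% lower. Scaling by library size alone moved the higher share of those called from 50.9% to 65.6%, and upper-quartile factors moved it to 61.5%. DESeq2 moved it the other way, to 44.4%. None of these settings turned the direction of any of the 5 genes. Satb1 was called higher for 1 gene (Zbtb16) and lower for 1 (Zbtb7b), where 6.36% of all genes were called, 3.28% higher and 3.09% lower. The number behind that share, 808 genes, was 524 without mock replicate 1, 430 without mock replicate 2 and 478 without Satb1 replicate 1. The number called with Runx1 DN, 4375 genes, was 2908 without its replicate 1. The median log2 fold change over all genes was 0.10 for Runx1 WT, 0.002 for Runx1 DN and -0.004 for Satb1, and with library size alone that of Runx1 WT became 0.22. These 3 comparisons share the mock libraries.

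Between constructs, Runx1 WT stood above Runx1 DN for 3 genes (Zbtb16, Zbtb7a and Bcl6) and below it for none, where 68.3% of all genes were called, 34.8% higher and 33.5% lower. Upper-quartile factors moved the higher share of those called from 50.9% to 45.3%, and library size alone moved it to 53.9%. Runx1 WT stood above Satb1 for 4 genes, all but Zbtb32, where 70.9% were called, 38.7% higher and 32.2% lower. Runx1 DN stood above Satb1 for Zbtb7b and Zbtb7a and below it for Zbtb16, where 38.0% were called, 19.4% higher and 18.6% lower. In that comparison the higher share of those called moved from 51.1% to 64.4% with library size alone and to 45.7% with DESeq2.

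**Figure D1:**
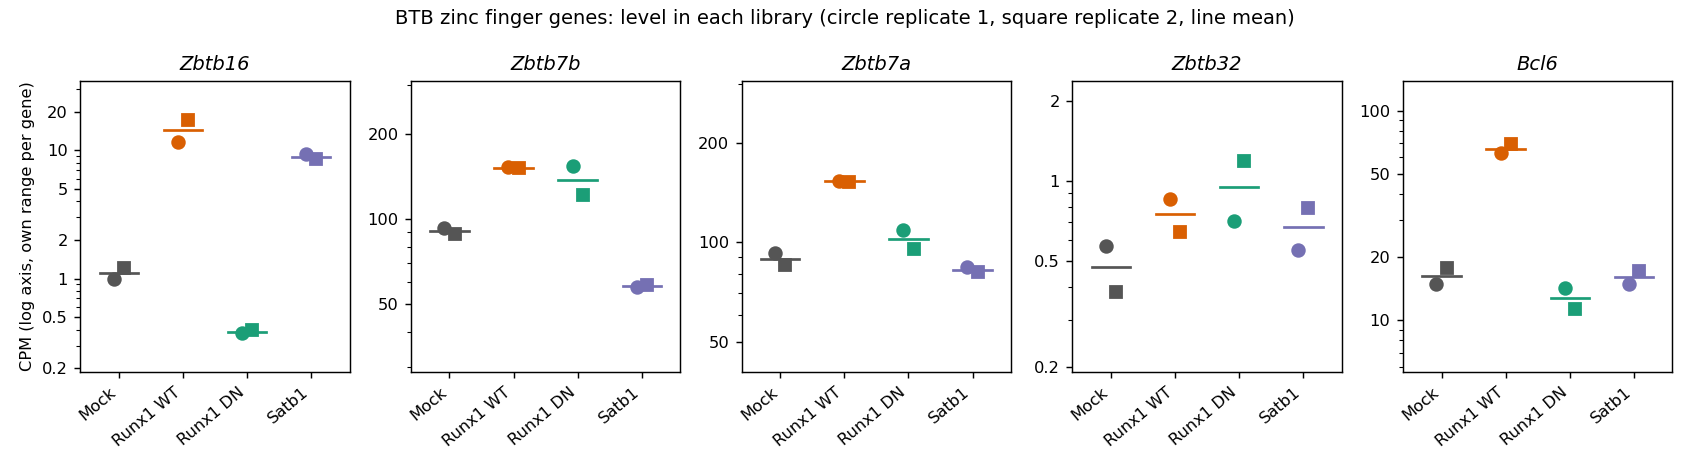
Level of each gene in each library in CPM on a log axis with its own range per gene, for mock, Runx1 WT, Runx1 DN and Satb1. Circles are replicate 1, squares replicate 2 and lines group means. Zbtb16 spans 0.374 to 17.4 CPM, while Zbtb7b and Zbtb7a stay between 57.7 and 154.4 CPM.

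**Figure D2:**
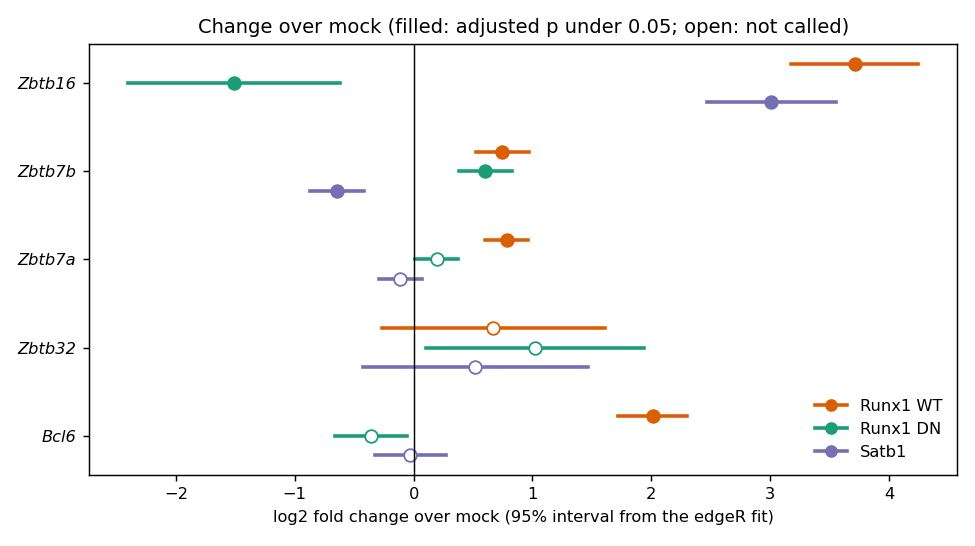
Log2 fold change over mock of each gene for Runx1 WT, Runx1 DN and Satb1, with bars for the 95% interval of the edgeR fit. Filled points have an adjusted p under 0.05. Zbtb16 and Zbtb7b have filled points for all 3 constructs, and Zbtb32 has none.

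Per kilobase of exon, the scale on which genes can be compared, Zbtb7b led in mock at 24.7 ± 0.95 CPM per kb (SD, n = 2), ahead of Zbtb7a at 16.6 ± 1.0 and Bcl6 at 4.98 ± 0.61. Zbtb32 followed at 0.269 ± 0.074 and Zbtb16 at 0.215 ± 0.032, and these last genes did not differ beyond their spread. ThPOK and LRF transcripts were thus the abundant ones in the line, and ROG and PLZF transcripts the rare ones. With Runx1 WT the levels per kb were 41.4 ± 0.42 for Zbtb7b, 28.5 ± 0.14 for Zbtb7a, 20.1 ± 1.4 for Bcl6, 2.85 ± 0.79 for Zbtb16 and 0.424 ± 0.085 for Zbtb32. With Runx1 DN they were 37.5 ± 6.3, 19.0 ± 1.8, 3.90 ± 0.62, 0.0754 ± 0.003 and 0.536 ± 0.19, which put Zbtb16 last. With Satb1 they were 15.8 ± 0.14, 15.4 ± 0.37, 4.89 ± 0.48, 1.75 ± 0.11 and 0.380 ± 0.098. There the ranges of mean ± SD of Zbtb7b and Zbtb7a overlapped. Zbtb16 stood above Zbtb32 with Runx1 WT and Satb1 and below it with Runx1 DN, in each case beyond their spread.

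Sequence at the start sites is shown for the genes that rose with Runx1 WT, except Zbtb16, for which no window was available. Whether Runx1 binds at these start sites was not tested. RefSeq windows (GRCm38.p6, 250 bases before to 50 after a start) were matched for 4 of the 5 genes, Zbtb7b, Zbtb7a, Zbtb32 and Bcl6, in 7 windows. They were searched on both strands for TGTGGT and TGCGGT, the letters of the Runx core, and since the motifs differ in 1 letter the same bases cannot match both. Each window reads 5′ to 3′ on the gene's strand, with matches in capitals, ACCGCA being TGCGGT on the other strand.
Zbtb7b, downstream start, chr3:89387622-89387921, minus strand: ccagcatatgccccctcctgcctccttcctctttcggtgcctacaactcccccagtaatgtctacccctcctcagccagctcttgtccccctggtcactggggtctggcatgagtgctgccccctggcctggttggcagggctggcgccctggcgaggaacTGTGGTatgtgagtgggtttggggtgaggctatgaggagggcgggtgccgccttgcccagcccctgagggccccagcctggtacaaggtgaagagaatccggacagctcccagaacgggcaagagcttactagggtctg
Zbtb7b, upstream start, chr3:89393329-89393628, minus strand: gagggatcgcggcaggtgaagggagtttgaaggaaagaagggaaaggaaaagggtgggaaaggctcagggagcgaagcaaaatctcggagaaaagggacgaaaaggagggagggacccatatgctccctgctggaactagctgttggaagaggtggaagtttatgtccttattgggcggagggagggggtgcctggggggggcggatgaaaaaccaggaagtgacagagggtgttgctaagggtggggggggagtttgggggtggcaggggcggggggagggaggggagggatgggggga
Zbtb7a, chr10:81136021-81136320, plus strand: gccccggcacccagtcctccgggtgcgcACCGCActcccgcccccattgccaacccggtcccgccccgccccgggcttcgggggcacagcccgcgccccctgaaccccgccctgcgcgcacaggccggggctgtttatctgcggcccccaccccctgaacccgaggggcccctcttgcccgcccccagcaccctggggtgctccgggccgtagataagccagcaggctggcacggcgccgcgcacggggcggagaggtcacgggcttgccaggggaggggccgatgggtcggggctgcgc
Bcl6, upstream start, chr16:23988803-23989102, minus strand: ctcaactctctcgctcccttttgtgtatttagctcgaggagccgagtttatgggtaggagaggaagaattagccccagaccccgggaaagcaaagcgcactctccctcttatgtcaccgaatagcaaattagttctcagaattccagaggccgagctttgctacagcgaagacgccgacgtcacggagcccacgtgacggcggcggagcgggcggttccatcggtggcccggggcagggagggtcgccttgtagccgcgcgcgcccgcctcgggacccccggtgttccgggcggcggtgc
The downstream Zbtb7b window holds 1 TGTGGT, 89 bases before the start, and the upstream Zbtb7b window holds neither motif. The Zbtb7a window holds 1 TGCGGT, 222 bases before the start. The Bcl6 window shown and the other Bcl6 window, at chr16:23981234-23981533, hold neither. Zbtb32, which was called in no comparison, has a match in both of its windows. Of 32851 mouse windows of this kind, 16.8% hold TGTGGT, 6.45% hold TGCGGT and 22.4% hold either, and a match is a description of letters, not of a bound site.

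Zbtb16 (NM_001033324, chromosome 9, 48462402 to 48644050, minus strand, mm9), which encodes PLZF, was the one of the 5 with the widest range between groups. It had 26 and 38 counts in mock, 327 and 487 with Runx1 WT, 9 and 11 with Runx1 DN, and 272 and 268 with Satb1. In CPM, the mock libraries were at 0.983 and 1.21, Runx1 WT at 11.7 and 17.4, Runx1 DN at 0.374 and 0.396, and Satb1 at 9.34 and 8.52. No 2 groups overlapped, and the order was Runx1 WT, Satb1, mock and Runx1 DN. The Runx1 WT pair was the widest, at 14.5 ± 4.1 CPM (SD, n = 2) against 1.1 ± 0.16 in mock. Zbtb16 was low but above the limit of detection in every library.

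Zbtb16 rose with Runx1 WT by 3.71 ± 0.24 (log2, SE), with a 95% interval of 3.18 to 4.24 and an adjusted p of 4.45e-07. With Satb1 it rose by 3.01 ± 0.24 (2.47 to 3.55, adjusted p = 5.83e-05). With Runx1 DN it fell by 1.51 ± 0.40 (adjusted p = 0.0155), a 2.84-fold lower level that rests on 9 and 11 counts. The fall lost its call when mock replicate 2 was left out (-1.34, adjusted p = 0.0811), and also on leaving out Runx1 DN replicate 1 (-1.46, 0.0757) or its replicate 2 (-1.55, 0.0679). Between the Runx1 constructs the difference was 5.22 ± 0.29 (log2, adjusted p = 1.78e-07), or 37.2-fold. Runx1 WT stood above Satb1 by 0.70 ± 0.19 (0.29 to 1.12, adjusted p = 0.00631), which became 0.39 with an adjusted p of 0.0832 without Runx1 WT replicate 2. Satb1 libraries had a Runx1 level 0.45 ± 0.10 (log2) above mock (adjusted p = 0.0266). Satb1 transcripts differed from mock by -0.33 ± 0.08 (log2) in the Runx1 WT libraries (adjusted p = 0.0032). In the Runx1 DN libraries, where Zbtb16 fell, Satb1 transcripts differed by -0.88 ± 0.08 (adjusted p = 2.02e-05), at 207 CPM against 381. The part of these Satb1 levels in the Zbtb16 values was not tested.

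The genes closest to Zbtb16 in pattern were Pcsk6, Cdh15, Adgra1, Hpgds and Slc6a7, with a root mean square difference of centred log2 CPM of 0.42 to 0.68 and Pearson r of 0.94 to 0.99 over the 8 libraries. Hpgds, the haematopoietic prostaglandin D synthase, was at 2.27 CPM in mock, 68.3 with Runx1 WT, 2.30 with Runx1 DN and 32.9 with Satb1. Cdh15, the M-cadherin of muscle precursors, was at 1.30, 22.04, 0.867 and 10.4 CPM in the same order. Pcsk6, a proprotein convertase, was at 0.625, 4.44, 0.155 and 2.88 CPM. All 5 were low in mock, between 0.161 and 2.27 CPM. Their higher means with Runx1 WT and with Satb1 than in mock follow from the choice by pattern.

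Of 31 genes linked with PLZF-dependent innate-like lymphocytes in the table, 23 were tested. With Runx1 WT 19 were higher and 1 was lower, with a median log2 fold change of 2.06, against 38.9% higher, 31.8% lower and a median of 0.10 over all genes. Of the 23, 5 (Il4, Icos, Ccr6, Klrb1c and Kit) passed the filter only through the Runx1 WT libraries and 1 (Egr2) only through Runx1 DN, so their place in the counts was fixed by the filter. Without these 6, 13 of 17 were higher and 1 lower with Runx1 WT, with a median of 1.65. Cxcr6, a chemokine receptor of tissue-resident natural killer T cells, rose from 0.850 to 43.8 CPM (5.68 ± 0.16, adjusted p = 6.07e-09). Il17rb, the IL-25 receptor, rose from 53.6 to 322 CPM (2.59 ± 0.08), Cd1d1, which presents lipid to natural killer T cells, from 20.4 to 85.0 CPM (2.06 ± 0.09), and Il12rb1, an IL-12 receptor chain, from 26.4 to 81.2 CPM (1.62 ± 0.08). The gene that fell was Nfil3, an early regulator of innate lymphoid cells, at 12.0 and 5.78 CPM (-1.07 ± 0.34, adjusted p = 0.0171), a call that was lost without mock replicate 2 or either Runx1 WT replicate. Il7r and Sh2d1a were not called (0.32 ± 0.14 and -0.19 ± 0.12).

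With Satb1, where Zbtb16 itself rose 8.05-fold, 3 of the 23 were higher and 2 were lower, with a median of -0.08, against 3.28% higher, 3.09% lower and a median of -0.004 over all genes. Fyn, a kinase needed for natural killer T cells, rose from 29.3 to 54.4 CPM (0.89 ± 0.08), and Cd1d1 rose from 20.4 to 30.5 CPM (0.58 ± 0.09, adjusted p = 0.00352). Il7r, the IL-7 receptor, fell from 107 to 21.5 CPM (-2.31 ± 0.15), and Tox, a regulator of thymocyte and innate lymphoid development, fell from 41.5 to 23.2 CPM (-0.84 ± 0.10). Cxcr6 was at 0.850 CPM in mock and 0.681 with Satb1 (-0.32 ± 0.26, adjusted p = 0.623), and Rora was at 104 and 98.4 CPM (-0.08 ± 0.13). With Runx1 DN 6 were higher and 8 lower (median -0.30, against 17.5%, 16.9% and 0.002 over all genes), among them Il17rb, down from 53.6 to 2.59 CPM (-4.37 ± 0.10), Il7r, down to 7.47 CPM, and Fyn, up to 231 CPM (2.98 ± 0.08). Slamf6 had no counts with Runx1 DN, and with 3 counts over the group in place of 0 the median was still -0.30. Without Runx1 DN replicate 1, 2 of the 23 were higher. Natural killer and innate lymphoid markers (6 genes) summed to 0.832 to 1.05 CPM in mock, 92.2 to 96.0 with Runx1 WT, 0.216 to 0.249 with Runx1 DN and 2.71 to 3.88 with Satb1. With Runx1 WT nearly all of that sum was Nkg7, at 90.9 and 94.0 CPM. Nkg7 was at 0.529 and 0.926 CPM in mock and 2.37 and 3.75 with Satb1. Ncr1 was at 0.151 and 0.0638 CPM in mock and 0.606 and 1.43 with Runx1 WT. Klrb1c was at 0.151 and 0.0638 CPM in mock and 0.535 and 0.571 with Runx1 WT. Eomes and Il18r1 stayed at or under 0.178 CPM, and Klrd1 was at 0 in every library. The part of these markers in the list's values was not tested.

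**Figure D3:**
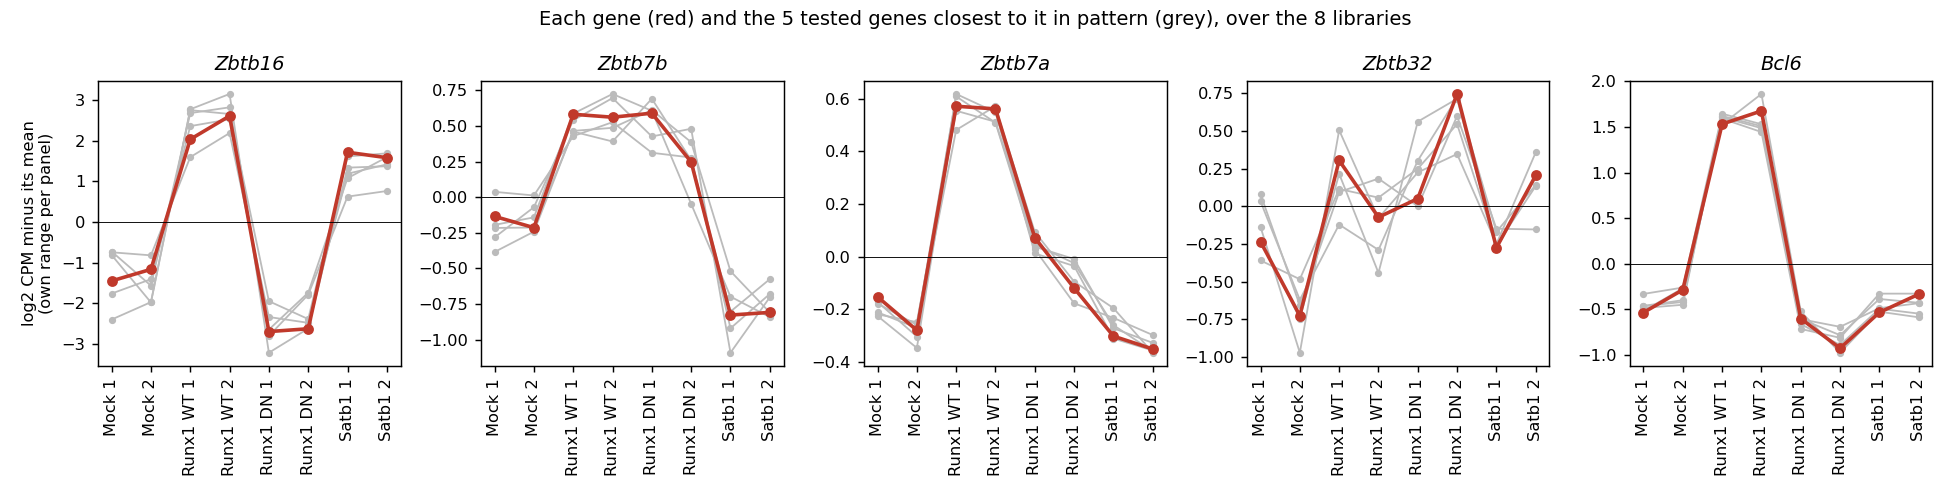
Centred log2 CPM of each of the 5 BTB genes (red) and of the 5 tested genes closest to it in pattern (grey) over the 8 libraries, each panel with its own range. The Zbtb16 panel is high with Runx1 WT and Satb1, the Bcl6 panel with Runx1 WT.

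Zbtb7b (NM_009565, chromosome 3, 89181568 to 89197125, minus strand, mm9) encodes ThPOK. Its counts were 2470 and 2770 in mock, 4306 and 4239 with Runx1 WT, 3713 and 3382 with Runx1 DN, and 1681 and 1841 with Satb1. In CPM these were 93.4 and 88.4, 153.6 and 151.4, 154.4 and 121.7, and 57.7 and 58.5. Both Runx1 groups lay wholly above mock and the Satb1 group wholly below it, and the Runx1 WT and Runx1 DN libraries overlapped.

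Zbtb7b rose by 0.75 ± 0.10 (log2) with Runx1 WT, or 1.68-fold (adjusted p = 7.83e-05), and by 0.60 ± 0.10 with Runx1 DN, or 1.52-fold (adjusted p = 0.00123). It fell by 0.64 ± 0.10 with Satb1 to a 1.56-fold lower level (adjusted p = 0.0039). The Runx1 constructs did not differ past the threshold, at 0.14 ± 0.10 with an interval of -0.08 to 0.37 (adjusted p = 0.223), and the value was 0.30 (adjusted p = 0.0121) without Runx1 DN replicate 1 and -0.020 without its replicate 2. Runx1 WT stood 2.62-fold and Runx1 DN 2.37-fold above Satb1 (1.39 ± 0.10 and 1.25 ± 0.10, adjusted p = 9.81e-07 and 9.65e-06). Without the replicate 2 libraries of mock and Satb1, those with the higher hypoxia genes, the difference between Satb1 and mock was -0.69 with an adjusted p of 0.0753. The predicted transcript Gm15417 overlaps Zbtb7b by 1340 bases on the other strand and had 28 to 65 counts, and counting used no strand.

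Fam174a, Cox6a2, Phlda1, Chd3 and Bmf were closest to Zbtb7b in pattern (root mean square difference 0.12 to 0.17, r 0.96 to 0.98). Bmf, a BH3-only death gene, was at 147 CPM in mock, 254 with Runx1 WT, 226 with Runx1 DN and 89.5 with Satb1. Chd3, a remodeller of the NuRD complex, was at 645, 883, 777 and 365 CPM. The means of these genes, above mock with both Runx1 constructs and below it with Satb1 as for Zbtb7b, follow from the choice by pattern.

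Genes of the CD4 and CD8 lineage circuit around ThPOK numbered 18, of which 16 were tested, the transduced Runx1 and Satb1 included, as well as Cd4, which passed the filter only through Runx1 WT. With Runx1 WT 11 were higher and 3 lower, with a median log2 fold change of 0.80, against 38.9%, 31.8% and 0.10 over all genes, and without mock replicate 1 the lower number was 1. Without Cd4, 10 of 15 were higher with Runx1 WT (median 0.78), the transduced Runx1 (5.90) among them. The genes higher with Satb1, below, likewise hold the transduced Satb1 (3.31), and the transduction set both directions. With Runx1 DN 1 was higher and 12 were lower, with a median of -0.51, against 17.5%, 16.9% and 0.002 over all genes, the higher one being the transduced Runx1. With Satb1 5 were higher and 1 was lower (median 0.07, against 3.28%, 3.09% and -0.004 over all genes), and 2 were higher without mock replicate 2 or without Satb1 replicate 1. The T lineage marker sum was also highest with Runx1 WT and lowest with Runx1 DN, and its part in these counts was not tested. Il2ra with Runx1 WT and Cd3g with Runx1 DN, given above, did not follow that sum.

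Among the circuit's regulators, Gata3, which promotes ThPOK expression, rose with Runx1 WT from 209 to 656 CPM (1.65 ± 0.12, adjusted p = 1.16e-06) and fell with Runx1 DN to 38.6 CPM (-2.44 ± 0.13, adjusted p = 5.86e-07). Runx3, the Runx protein of the CD8 lineage, rose with Runx1 WT from 31.9 to 267 CPM (3.06 ± 0.15) and was at 31.1 CPM with Runx1 DN (-0.04 ± 0.15, adjusted p = 0.860). Zbtb7b was higher in both of these groups, so its direction with Runx1 DN was the opposite of that of Gata3. Patz1, a BTB factor also called MAZR that represses the ThPOK gene in CD8 cells, rose with Runx1 WT from 92.8 to 241 CPM (1.38 ± 0.07), fell with Runx1 DN to 72.7 CPM (-0.35 ± 0.07) and rose with Satb1 to 120 CPM (0.37 ± 0.07, adjusted p = 0.0143). Cd4 was at 0.231 CPM in mock, 8.53 with Runx1 WT, 0.233 with Runx1 DN and 0.102 with Satb1, given as levels only because of the filter. The T lineage regulators Tcf7 and Ets1 fell with Runx1 DN, Tcf7 from 1233 to 191 CPM and Ets1 from 217 to 71.4 CPM (-2.69 ± 0.08 and -1.60 ± 0.07). With Satb1, Lef1, a relative of Tcf7, rose from 93.5 to 415 CPM (2.15 ± 0.09) and Tox fell (-0.84 ± 0.10), while Tcf7 (0.05 ± 0.07) and Bcl11b (0.09 ± 0.09) were not called.

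**Figure D4:**
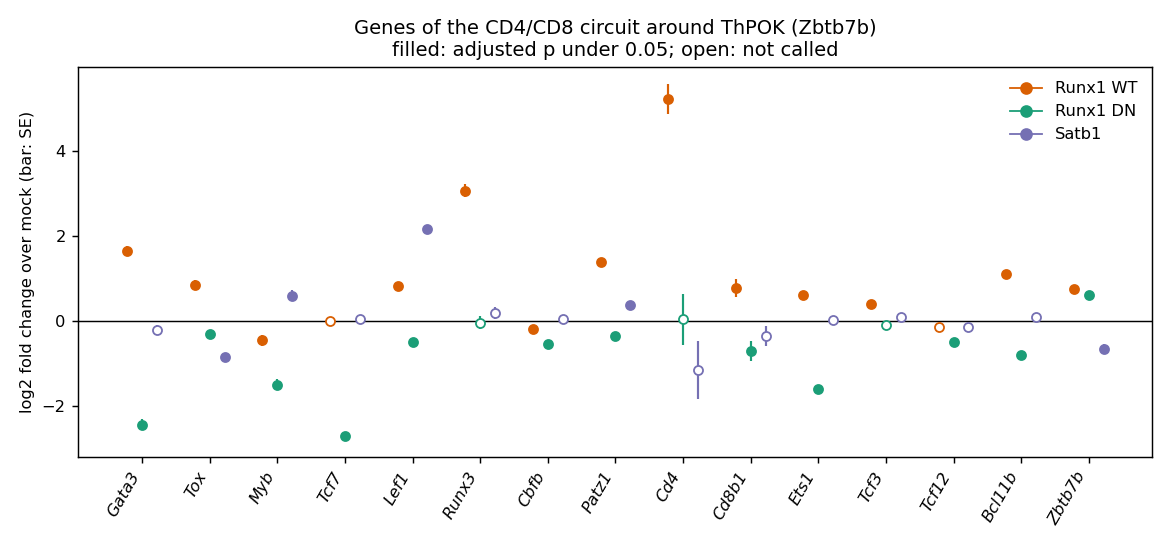
Log2 fold change over mock of genes of the CD4 and CD8 circuit around ThPOK for Runx1 WT, Runx1 DN and Satb1, with bars for the SE. Filled points have an adjusted p under 0.05. Zbtb7b lies above 0 for both Runx1 constructs (0.75 and 0.60) and below it for Satb1 (-0.64), and Gata3 above 0 for Runx1 WT and below it for Runx1 DN.

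Zbtb7a (NM_010731, chromosome 10, 80599016 to 80614402, plus strand, mm9) encodes LRF, the closest relative of ThPOK. Its counts were 2459 and 2667 in mock, 4307 and 4271 with Runx1 WT, 2613 and 2643 with Runx1 DN, and 2440 and 2550 with Satb1. In CPM these were 93.0 and 85.1, 153.6 and 152.5, 108.6 and 95.1, and 83.8 and 81.0. The Runx1 WT libraries stood apart, and the other 3 groups, which did not overlap, lay within 81.0 to 108.6 CPM.

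Zbtb7a rose 1.72-fold with Runx1 WT (0.78 ± 0.08, adjusted p = 1.16e-05). With Runx1 DN the difference from mock was 0.19 ± 0.08 (0.01 to 0.38, adjusted p = 0.0899) and with Satb1 -0.11 ± 0.08 (-0.29 to 0.07, adjusted p = 0.530). The value with Runx1 DN passed the threshold without its replicate 2 (0.28, adjusted p = 0.0432), with library size alone (0.28, 0.0317) and with upper-quartile factors (0.25, 0.0329). Runx1 WT stood 1.5-fold above Runx1 DN (0.59 ± 0.08, adjusted p = 0.000101) and 1.86-fold above Satb1 (0.89 ± 0.08, adjusted p = 4.36e-06). Runx1 DN stood 1.24-fold above Satb1 (0.31 ± 0.08, adjusted p = 0.0142), a call lost without Runx1 DN replicate 1 (0.22, 0.104), Satb1 replicate 1 (0.33, 0.0510) or Satb1 replicate 2 (0.28, 0.0930). Gmppb, Klhl18, Zfp952 and Gosr1 were among the genes closest in pattern (difference 0.05 to 0.06, r 0.99), and Gosr1, a SNARE protein of the Golgi, was at 52.3 CPM in mock, 89.2 with Runx1 WT, 62.5 with Runx1 DN and 50.2 with Satb1.

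Of 14 Notch and survival genes linked with LRF, 13 were tested. With Runx1 WT 3 were higher and 8 lower, with a median log2 fold change of -1.29, against 38.9%, 31.8% and 0.10 over all genes, and without Runx1 WT replicate 2 the higher number was 1. With Runx1 DN 8 were higher and 3 lower (median 0.56, against 17.5%, 16.9% and 0.002 over all genes), or 7 and 3 of 12 without Heyl, which passed the filter only through Runx1 DN. With Satb1 6 were higher and none lower (median 0.59, against 3.28%, 3.09% and -0.004 over all genes). The lower number with Satb1 was 2 at an unadjusted p under 0.05 in edgeR, 0 with DESeq2 and 1 without Satb1 replicate 2. Notch1, the receptor that starts the T cell programme, fell with Runx1 WT from 773 to 307 CPM (-1.33 ± 0.10) and rose to 1657 CPM with Runx1 DN (1.10 ± 0.10) and 1703 CPM with Satb1 (1.14 ± 0.10). Hes5, a Notch target, fell from 22.1 to 3.64 CPM with Runx1 WT (-2.60 ± 0.17) and rose to 81.2 CPM with Runx1 DN (1.88 ± 0.14) and 39.1 CPM with Satb1 (0.83 ± 0.14). Nrarp, a Notch feedback inhibitor, and Ptcra, the pre-T cell receptor alpha chain, also fell with Runx1 WT (-2.65 ± 0.12 and -1.96 ± 0.11) and rose with Runx1 DN (1.42 ± 0.11 and 0.56 ± 0.10). Hes1, another Notch target, rose slightly with Runx1 WT, from 67.9 to 84.7 CPM (0.32 ± 0.12, adjusted p = 0.0357), and was not called with Runx1 DN (0.17 ± 0.12). Bcl2l11, the death gene BIM that LRF represses in the erythroid lineage, rose with Runx1 WT from 106 to 135 CPM (0.35 ± 0.10) and with Runx1 DN to 182 CPM (0.78 ± 0.10). The list also holds glycolytic genes such as Pkm, from 4048 CPM in mock to 1231 with Runx1 WT (-1.72 ± 0.25) and 1925 with Runx1 DN (-1.07 ± 0.24), which moved with the hypoxia genes, whose part was not tested.

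Zbtb32 (NM_021397, chromosome 7, 31374700 to 31377961, minus strand, mm9) encodes ROG and was the gene with the fewest counts in mock. It had 15 and 12 counts in mock, 24 and 18 with Runx1 WT, 17 and 33 with Runx1 DN, and 16 and 25 with Satb1. In CPM these were 0.567 and 0.383, 0.856 and 0.643, 0.707 and 1.19, and 0.550 and 0.794. The mock libraries lay below both Runx1 groups and overlapped with Satb1, and none of the 6 comparisons among the 4 groups passed the threshold of edgeR's test. The number was 1, Runx1 DN against mock, at an unadjusted p under 0.05, and 0 with DESeq2.

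The log2 fold change of Zbtb32 over mock was 0.67 ± 0.42 with Runx1 WT (-0.27 to 1.61, adjusted p = 0.179), 1.02 ± 0.41 with Runx1 DN (0.11 to 1.94, adjusted p = 0.0793) and 0.52 ± 0.42 with Satb1 (-0.42 to 1.46, adjusted p = 0.588). At 12 to 33 counts a library, none of these differences was detectable past the threshold. Without Runx1 DN replicate 2 the difference between Runx1 WT and Runx1 DN, -0.35 ± 0.38, became 0.08. Neto2, Mir5625, Gpr62, Fam46b and Tex26 were closest in pattern, with r of 0.85 to 0.93, at counts where counting error is large. Of 14 cytokine and activation genes linked with ROG, 11 were tested, 3 of which (Il4, Ifng and H2-Aa) passed the filter only through Runx1 WT, while Il5 would not have passed without mock or without Runx1 DN. With Runx1 WT 9 were higher and none lower (median 2.12, against 38.9%, 31.8% and 0.10 over all genes), and without mock replicate 1 the lower number was 1. By DESeq2 or at an unadjusted p under 0.05 it was 0. Without those 4 genes, 6 of 7 were higher with Runx1 WT and 3 with Runx1 DN. Cd74, the class II invariant chain, rose from 1.18 to 22.4 CPM (4.21 ± 0.21), Ciita, the class II transactivator, from 0.257 to 4.44 CPM (4.08 ± 0.38), and Gata3 as given above. Il5 (0.407 and 0.214 CPM, -0.93 ± 0.57) and H2-Ab1 (28.2 and 23.2 CPM, -0.29 ± 0.20) were not called. With Runx1 DN 4 were higher and 1, Gata3, was lower (median 0.07, against 17.5%, 16.9% and 0.002 over all genes), and the higher number was 2 without mock replicate 1 and 1 without Runx1 DN replicate 1. With Satb1 none of the 11 was called by edgeR (median -0.64, against 6.36% called and a median of -0.004 over all genes), where 3 were lower at an unadjusted p under 0.05, 0 were called by DESeq2 and 1 was lower without mock replicate 1.

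Bcl6 (NM_009744, chromosome 16, 23965138 to 23988698, minus strand, mm9) was counted 394 and 555 times in the mock libraries, 1754 and 1936 with Runx1 WT, 342 and 315 with Runx1 DN, and 434 and 539 with Satb1. In CPM these were 14.9 and 17.7, 62.6 and 69.1, 14.2 and 11.3, and 14.9 and 17.1. The Runx1 WT libraries were the high ones, mock and Satb1 overlapped, and Runx1 DN lay just below mock.

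Bcl6 rose 4.03-fold with Runx1 WT (2.01 ± 0.13, adjusted p = 4.48e-07), and Runx1 WT stood 5.17-fold above Runx1 DN (2.37 ± 0.13, adjusted p = 1.97e-07) and 4.11-fold above Satb1 (2.04 ± 0.13, adjusted p = 3.74e-07). Satb1 differed from mock by -0.03 ± 0.13 (-0.32 to 0.27, adjusted p = 0.954). Runx1 DN differed from mock by -0.36 ± 0.14 (-0.66 to -0.05, adjusted p = 0.0682) and passed the threshold without Runx1 DN replicate 1 (-0.52, 0.0400), without mock replicate 1 (-0.48, 0.0499) and with DESeq2 (-0.38, 0.0447). Runx1 DN differed from Satb1 by -0.33 ± 0.14 (adjusted p = 0.0830), or -0.49 with an adjusted p of 0.0460 without Runx1 DN replicate 1. Tnf, Tubb2a, Laptm5, Plin3 and Polr3k were closest in pattern (difference 0.12 to 0.13, r 0.99). Laptm5, a lysosomal protein that lowers T cell receptor levels, was at 350 CPM in mock, 1292 with Runx1 WT, 252 with Runx1 DN and 299.8 with Satb1.

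Of 30 genes linked with BCL6 or with follicular helper cells, 25 were tested. The list mixes genes that mark follicular helper cells with genes that are low in them, so its counts have no single expected direction. With Runx1 WT 13 were higher and 4 lower, with a median log2 fold change of 0.66, against 38.9%, 31.8% and 0.10 over all genes. Icos passed the filter only through Runx1 WT, and Ccr7 and Ascl2 only through Runx1 DN. Without these 3, 12 of 22 were higher with Runx1 WT and 7 with Runx1 DN. Prdm1, which encodes Blimp-1 and is the classical antagonist of BCL6, rose with Runx1 WT alongside Bcl6, from 1.79 to 25.98 CPM (3.85 ± 0.23, adjusted p = 2.75e-07), and rose with Runx1 DN to 3.90 CPM (1.10 ± 0.26, adjusted p = 0.0087). Id2, an inhibitor of E proteins that BCL6 represses, rose with Runx1 WT from 61.5 to 275 CPM (2.16 ± 0.12). Pdcd1, the PD-1 receptor of follicular helper cells, was at 0.0319 CPM in mock and 21.8 CPM with Runx1 WT, and S1pr1, an egress receptor that is low in those cells, at 0.178 and 26.5 CPM (adjusted p = 1.48e-07 and 2.13e-07). Selplg, the P-selectin ligand that is low on follicular helper cells, rose from 75.4 to 286 CPM (1.93 ± 0.11, adjusted p = 2.76e-07). The 4 genes that fell with Runx1 WT, and Cxcr5, are named after their values were seen. Il2ra, the IL-2 receptor alpha chain, fell from 548 to 269 CPM (-1.03 ± 0.06, adjusted p = 3.64e-07). Atr and Trp53, DNA damage response genes that BCL6 represses in germinal centre B cells, fell from 91.3 to 34.1 CPM (-1.42 ± 0.14) and from 265 to 212 CPM (-0.32 ± 0.07). Il6ra, an IL-6 receptor chain, fell from 2.79 to 1.41 CPM (-0.97 ± 0.24, adjusted p = 0.00462). Cxcr5, the chemokine receptor that defines follicular helper cells, was at 0.466 CPM in mock and 0.446 with Runx1 WT (-0.07 ± 0.44, adjusted p = 0.904). Tcf7 (0.01 ± 0.07) and Cdkn1b (0.15 ± 0.19) were also not called.

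With Runx1 DN 9 of the 25 were higher and 7 lower (median 0.21, against 17.5%, 16.9% and 0.002 over all genes), and 5 were higher without Runx1 DN replicate 1. Il2ra fell from 548 to 70.5 CPM (-2.96 ± 0.07), as it did to a lesser degree with Runx1 WT, and Selplg, which rose with Runx1 WT, fell from 75.4 to 6.66 CPM (-3.50 ± 0.14). With Satb1 2 were higher and 2 lower (median -0.06, against 3.28%, 3.09% and -0.004 over all genes). Selplg fell to 26.6 CPM (-1.50 ± 0.12), Stat3 fell from 164 to 131 CPM (-0.33 ± 0.08, adjusted p = 0.0369), and Il2ra and Sh2d1a rose (0.31 ± 0.06 and 0.52 ± 0.11, adjusted p = 0.0173 and 0.0219). The higher number was 0 without any 1 of the mock or Satb1 libraries, and the lower number was 1 without mock replicate 2, Satb1 replicate 1 or either Runx1 DN replicate.

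The other BTB zinc finger genes of the table numbered 42, of which 36 passed the filter. With Runx1 WT 15 were higher and 9 lower (median log2 fold change 0.22), against 38.9%, 31.8% and 0.10 over all genes, and without Zbtb4, which passed the filter only through that group, 14 of 35 were higher. The lower number was 5 without mock replicate 1, without Runx1 WT replicate 1 or with library size alone. Their changes with Runx1 WT ran from -2.27 to 2.28, the upper end being Zbtb4, and without Zbtb4 up to 2.05 (Zbtb8b). Zbtb16, at 3.71, lay outside either range of the other members and Bcl6, at 2.01, within both. Patz1 was the member with the smallest adjusted p (1.52e-07) and is given above. Zbtb12 fell from 29.5 to 6.10 CPM (-2.27 ± 0.14, adjusted p = 4.09e-07). Zbtb24, needed in human cells for DNA methylation at centromeric repeats, rose from 17.8 to 36.6 CPM (1.04 ± 0.09), and Zbtb5 rose from 39.6 to 76.8 CPM (0.95 ± 0.11). Zbtb17, or Miz-1, the partner through which Myc represses genes, was at 56.3, 58.7, 57.1 and 57.2 CPM in mock, Runx1 WT, Runx1 DN and Satb1 and was not called in any comparison with mock.

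With Runx1 DN 6 of the 36 were higher and 2 lower (median 0.09, range -0.63 to 0.97), against 17.5% and 16.9% and a median of 0.002 over all genes. Zbtb25 fell from 18.8 to 12.2 CPM (-0.63 ± 0.12, adjusted p = 0.00277), as it did with Runx1 WT, and Hic1, a growth-restraining target of p53, rose from 1.67 to 3.31 CPM (0.97 ± 0.23, adjusted p = 0.0101). The higher number was 2 without mock replicate 1 and 1 without either Runx1 DN replicate, and the lower number was 4 without mock replicate 2. Zbtb16, at -1.51, lay below the range of the others. With Satb1 2 were higher and 1 lower (median 0.04, range -0.81 to 0.46), against 3.28% and 3.09% and a median of -0.004 over all genes. The lower one was Zbtb12, from 29.5 to 16.8 CPM (-0.81 ± 0.13, adjusted p = 0.00423), and the higher ones were Patz1 and Zbtb34, the latter from 36.1 to 49.7 CPM (0.46 ± 0.09, adjusted p = 0.0133). None was higher without mock replicate 2 or Satb1 replicate 1. Zbtb16 rose with Satb1 by 3.01 (log2), where the highest value among these 36 genes was 0.46.

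**Figure D5:**
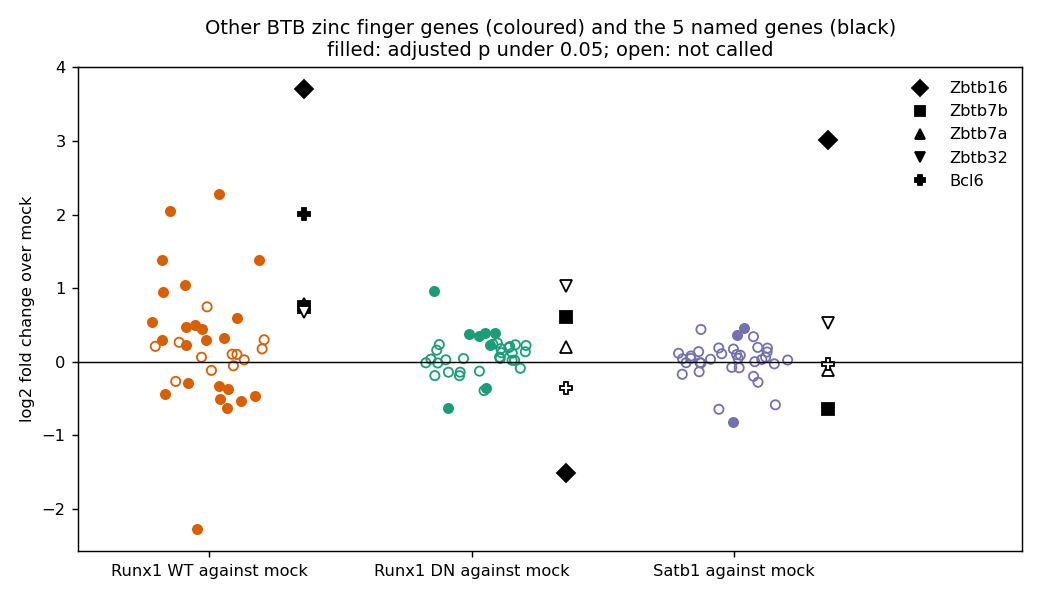
Log2 fold change over mock of the other 36 BTB zinc finger genes tested (coloured) and of the 5 named genes (black symbols) for Runx1 WT, Runx1 DN and Satb1. Filled points have an adjusted p under 0.05. Zbtb16 lies above all others with Runx1 WT and Satb1 and below all others with Runx1 DN.

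The authors' deposited table gave log2 fold changes over mock of 3.61 for Zbtb16, 0.64 for Zbtb7b, 0.68 for Zbtb7a, 0.57 for Zbtb32 and 1.91 for Bcl6 with Runx1 WT. At 0.05 on its adjusted p-values, the authors' deposited table gave the same call in 15 of 15 comparisons of the 5 genes with mock.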

How the data were processed

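RNA from 8 libraries was counted by the authors with HOMER over the exons of each gene on mm9, without adjustment for length or depth and with the transcripts of a gene merged, per the file headers. Its deposited values are unnormalized read counts. Beside them stand the authors' log2 fold changes against mock with their p-values, raw and adjusted, made with edgeR per the file headers. The submitters' processing notes name edgeR 3.6.8, HOMER, RSEM 1.2.25, STAR 2.4.0 and Trimmomatic 033. Reads were single, of 50 nt, from a kit that does not mark strand, per the labels' protocols.

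From the counts, 12699 genes passed filterByExpr (at least 10 counts in enough libraries and 15 in all). TMM scaling and the quasi-likelihood test of edgeR 4.0.16 (R 4.3.3) were applied to the 8 libraries together, with a mean for each group and 4 residual degrees of freedom. The p-values are two-sided and were adjusted by Benjamini-Hochberg over all genes tested, with a threshold of 0.05. CPM are on the TMM scale, and an SE is the log2 fold change divided by the square root of the F statistic. No row shared all 8 counts with any of the 5 genes. The fit was tested on simulated data. Alternatives were library size alone, upper-quartile factors, no filter, a stricter filter (1 CPM in 2 libraries), robust shrinkage, the replicate number as a block, the compared libraries alone, DESeq2 1.42.0, each library left out in turn, and mock and Satb1 replicate 2 left out together. List counts were also taken without genes that pass the filter only through the libraries of 1 group, an alternative chosen after seeing the data.

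The 5 genes and the gene lists were chosen with earlier results of these data known, and the hypoxia list was taken from genes that differ between the mock replicates, so list counts are descriptions. List counts and medians stand beside the shares called and the median over all genes. From each list and comparison the text names up to 4 called genes with the smallest adjusted p and up to 2 uncalled genes with the highest mean CPM, with a gene named once also followed across the other groups. Genes closest in pattern are the 5 with the smallest root mean square difference of log2 CPM (prior count 2), centred on the mean of the 8 libraries, leaving out predicted models. RefSeq windows of GRCm38.p6 were matched by symbol and never joined to mm9 coordinates. Some genes that this rule names are not reported here.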

Additional observations from a re-analysis of the deposited data

How the results depend on the processing

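Over 504 alternative values of the 30 fold changes of the 5 genes, 476 kept direction and side of the threshold, 10 lost and 10 gained the call, and 8 turned sign, at values of -0.088 to 0.11. Zbtb16 against mock kept its call in all 17 alternatives for Runx1 WT (3.40 to 3.97) and for Satb1 (2.88 to 3.24). Leaving out 1 library at a time gave -1.65 to -1.34 for Zbtb16, 0.10 to 0.28 for Zbtb7a and -0.52 to -0.20 for Bcl6 with Runx1 DN against mock. It gave -0.14 to 0.11 for Bcl6 with Satb1 against mock. For Runx1 WT against Runx1 DN it gave -0.020 to 0.30 for Zbtb7b and -0.69 to 0.082 for Zbtb32. For Runx1 WT against Satb1 it gave 0.39 to 0.96 for Zbtb16 and -0.088 to 0.44 for Zbtb32, and for Runx1 DN against Satb1 0.22 to 0.39 for Zbtb7a and -0.49 to -0.18 for Bcl6. The number of genes called ran from 2908 to 4675 for Runx1 DN against mock and from 430 to 839 for Satb1 against mock. Without mock and Satb1 replicate 2, the number called was 2715 for Runx1 DN against mock, 314 for Satb1 against mock and 3021 for Runx1 DN against Satb1. In that setting Zbtb16 with Runx1 DN against mock was -1.34, Zbtb7b with Satb1 against mock -0.69, Zbtb32 -0.043 and Bcl6 0.0028 there, and Zbtb7a between Runx1 DN and Satb1 0.28, with fewer samples. Zbtb7a with Runx1 DN against mock was 0.28 with library size alone and 0.25 with upper-quartile factors, and Bcl6 -0.38 with DESeq2; the cause was not tested. Zbtb32 did not pass the stricter filter. Of 1944 alternative values of 108 list counts, 144 moved by over 1.5 times.

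Replicate numbers 1 and 2 are shared by the groups, but the labels do not say that they pair libraries, and same-numbered deviations correlated at 0.0682 to 0.392, highest for mock with Satb1. With the replicate number as a block, 3 of 36 results changed: the number called for Satb1 against mock was 1265, and Zbtb7a (0.19) and Bcl6 (-0.36) with Runx1 DN against mock passed the threshold. The block changed no other call of the 5 genes. Counts were lowest for Zbtb32 (12 to 33 a library) and for Zbtb16 with Runx1 DN (9 and 11), and the part of depth in their calls was not tested.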

Other observations

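BTB factors act through corepressor complexes, and 24 of 25 genes for such corepressors and partners were tested. With Runx1 WT 9 were higher and 5 lower, with Runx1 DN 4 were higher and 7 lower, and with Satb1 1 was lower (median log2 fold changes 0.11, -0.05 and 0.02). Over all genes 38.9% were higher and 31.8% lower with Runx1 WT, 17.5% and 16.9% with Runx1 DN, and 3.28% and 3.09% with Satb1, with medians of 0.10, 0.002 and -0.004. Hdac7, which restrains thymocyte death programmes, fell with Runx1 DN from 364 to 121 CPM (-1.59 ± 0.07, adjusted p = 1.35e-07) and rose with Runx1 WT to 485 CPM (0.41 ± 0.07). Hdac5 rose with Runx1 DN from 14.5 to 57.4 CPM (1.99 ± 0.12) and with Runx1 WT to 23.9 CPM (0.73 ± 0.13), and fell with Satb1 to 4.81 CPM (-1.59 ± 0.14, adjusted p = 0.000124). Hdac4 rose with Runx1 WT from 24.0 to 62.9 CPM (1.39 ± 0.11) and fell with Runx1 DN to 18.4 CPM (-0.38 ± 0.12, adjusted p = 0.0287).

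Ncor1, a corepressor scaffold, was at 426 CPM in mock, 426 with Runx1 WT, 403 with Runx1 DN and 426 with Satb1 and was not called against mock. Mta3, the NuRD subunit that BCL6 recruits in B cells, rose with Runx1 WT from 61.4 to 125 CPM (1.02 ± 0.08), and Sin3b rose from 86.6 to 178 CPM (1.04 ± 0.08). The lower number with Runx1 WT was 3 with library size alone or without mock replicate 2. With Runx1 DN the lower number was 2 or 3 without any 1 mock or Runx1 DN library and 2 with library size alone or upper-quartile factors, and the higher number was 2 without either mock replicate, without Runx1 DN replicate 1 or with DESeq2.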
